A study of Mus musculus with 9 samples.

Results

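The mitochondrial ribosomal proteins were followed through 9 arrays of mouse CD4+ T cells. Members were the genes whose symbol, reached through the RefSeq accession of the probe, begins with Mrpl or Mrps and a digit. RefSeq holds 84 symbols that meet this rule, 6 of them pseudogenes, and 78 were on the array, among 19071 genes tested in all. The filter on dim probes asked for a signal well above background on 3 or more of the 9 arrays. Of the 78 members 77 passed it, and these 77 were well above background on all 9 arrays. Mrpl21, a large subunit protein, was well above background on 1 array and was not tested. The members lie on 17 chromosomes, with 50 tested genes of the large subunit, 26 of the small subunit, and Mrps36, which keeps a ribosomal name but is known as a component of the oxoglutarate dehydrogenase complex. Mrps30 and Mrps18a are counted with the large subunit, where their proteins sit despite their names.

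The cells came from spleen and lymph nodes of mice on the BALB/c background. All 3 groups were enriched for CD4 and then kept for 3 h with PMA (10 ng/ml), which activates protein kinase C, plus the ionophore ionomycin (500 ng/ml), which lets calcium in, labelled with a secretion assay for interferon gamma and IL-17A, and sorted as CD3+ CD4+ cells. Naive cells were CD45RB high, Th1 cells CD45RB low, interferon gamma positive and IL-17A negative, and Th17 cells CD45RB low, interferon gamma negative and IL-17A positive, with 3 arrays in each group. Levels are log2 of the processed signal of the brightest kept probe minus the 75th percentile of its array, so they are relative to the other genes of the array and are not compared between probes. A gene is called at an adjusted p under 0.05 (limma, two-sided, Benjamini-Hochberg over all genes tested). The labels do not say whether the arrays of a group came from separate mice, so the p-values measure the spread between these samples only. Fewer cells of a type and less RNA per cell cannot be told apart in such sorted populations.

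The mitochondrial ribosome, or mitoribosome, translates the few messenger RNAs made from mitochondrial DNA, all of which encode subunits of the respiratory chain and of ATP synthase. Its RNAs come from mitochondrial DNA, whereas its proteins are encoded in the nucleus, made in the cytosol and imported. Some have a bacterial counterpart and others belong to mitochondria alone. T cell activation is known to be accompanied by growth of the mitochondrial protein synthesis machinery.

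Against naive cells, Th1 cells had more members lower than higher, and Th17 cells had about as many in each direction. Between Th1 and naive cells 13 of 77 members rose and 35 fell, where 23.5% of all genes tested rose and 30.4% fell. Without naive replicate 2 the rises were 8, beside 20.3% of all genes. The median change of the members was -0.25 on the log2 scale and that of all genes tested was -0.09. Between Th17 and naive cells 19 members rose and 22 fell, beside 24.4% and 29.7% of all genes, with a median of -0.01 for members and -0.09 for all genes. Both comparisons use the same 3 naive arrays. Between Th17 and Th1 cells 15 members rose and 0 fell, where 8.28% of all genes rose and 7.53% fell. There 66 of 77 members lay above zero, the members' median was 0.21 and that of all genes 0.01. At an unadjusted p under 0.05, limma gave 31 members higher and 1 lower in Th17 cells.

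**Figure D1:**
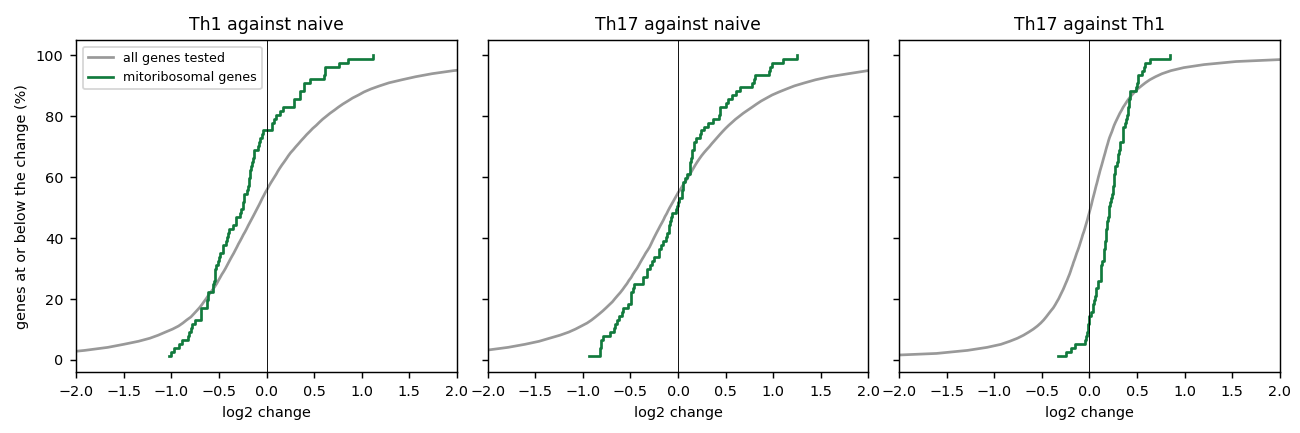
Cumulative share of genes (vertical axis, percent) at or below each log2 change (horizontal axis, drawn from -2 to 2) for the 77 mitoribosomal genes (green) and for all genes tested (grey), in the 3 comparisons. The green line crosses 50% at -0.25 in Th1 against naive, at -0.01 in Th17 against naive and at 0.21 in Th17 against Th1, and it is steeper than the grey one.

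Changes of members were small. In Th1 against naive cells 3 members were called and moved at least 2-fold (Mrpl33, Mrps11 and Mrpl53), beside 20.7% of all genes, and in Th17 against naive cells 2 did (Mrps27 and Mrpl33), beside 22.2%. In Th17 against Th1 cells 0 did, beside 6.4%. The 3 arrays of one group lay entirely on one side of the other 3 for 61 members in Th1 against naive (all genes 65.4%), 50 in Th17 against naive (63.3%) and 39 in Th17 against Th1 (35.4%), 37 of the last with Th17 above. The order of the group means was Th1 lowest, Th17 between and naive highest in 41.6% of members and 24.0% of all genes. It was Th1 lowest and Th17 highest in 23.4% of members and 8.41% of all genes, and Th17 lowest and Th1 highest in 0 members and 7.63% of all genes.

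Per array, the median level over the members was 2.97, 2.93 and 3.02 in naive cells, 2.55, 2.55 and 2.48 in Th1 cells and 2.75, 2.75 and 2.84 in Th17 cells. On this measure, which ranks levels of different probes, the groups did not overlap. When each member was first centred on its own mean over the 9 arrays, the median deviation was 0.08, 0.079 and 0.106 in naive, -0.136, -0.165 and -0.172 in Th1 and 0.054, 0.062 and 0.14 in Th17 cells, so that Th1 arrays lay below all others and Th17 overlapped with naive arrays. The median over all genes tested ran from -0.78 to -0.71 and differed by far less between groups. The choice of scale matters for these directions. When arrays were scaled to the 75th percentile of those probes alone that were above background on every array, the all-gene median in Th1 against naive went from -0.093 to 0.055 and the calls from 4485 higher and 5803 lower to 5452 and 4431. The members' median was then -0.10 in Th1 and 0.07 in Th17 against naive cells, in place of -0.25 and -0.01. Such a scaling moves all genes of an array alike, so relative to the median of all genes the members stayed by construction at -0.16 in Th1 and 0.07 in Th17 cells. Quantile normalization can change this relative value. With it the members stood at -0.07 relative to all genes in Th1 cells (medians -0.142 and -0.072). In Th17 cells they stood at 0.121 (medians 0.056 and -0.065).

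**Figure D2:**
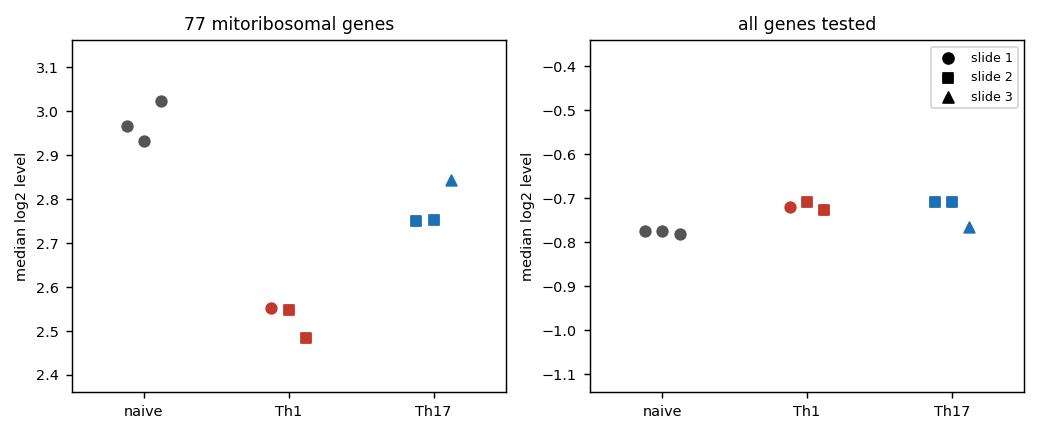
Median log2 level relative to the array's 75th percentile (vertical axis) over the 77 mitoribosomal genes (left) and over all genes tested (right), 1 point per array, with symbols for the slide. Both panels span the same height. Members lie at 2.93 to 3.02 in naive, 2.48 to 2.55 in Th1 and 2.75 to 2.84 in Th17 arrays, while all genes lie between -0.78 and -0.71.

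The slides of the arrays were not spread evenly over the groups. Slide 1 held the 3 naive arrays and Th1 replicate 1, slide 2 held Th1 replicates 2 and 3 with Th17 replicates 1 and 2, and slide 3 held Th17 replicate 3, so naive and Th17 arrays never shared a slide. Within slide 1, 5 members rose and 16 fell in Th1 against naive cells, beside 16.8% and 17.6% of all genes in that fit, with a median of -0.245, from a single Th1 array assumed to vary like the others. Within slide 2, 2 members (Mrpl54 and Mrps28) rose and 0 fell in Th17 against Th1 cells, with a median of 0.22, and 3.82% of all genes rose and 3.62% fell, so the members' count is no larger than the share of all genes. A fit that included slide found that 6 members rose and 28 fell in Th1 against naive cells, beside 19.7% and 21.7% of all genes. In Th17 against naive cells 7 rose and 11 fell, beside 14.4% and 13.1%, and between Th17 and Th1 cells 7 rose and 0 fell, beside 6.07% and 5.18%. In that fit 33 of the 48 calls in Th1, 17 of the 41 in Th17 against naive and 7 of the 15 between Th17 and Th1 cells were kept. The medians within slides were close to those over all arrays, while fewer members were called from fewer arrays. The fit with slide is no separate check, since it compares Th1 with naive cells through Th1 replicate 1 alone. Its medians were the same as within slides, -0.245 in Th1 against naive and 0.222 in Th17 against Th1 cells. Its Th17 change against naive cells is chained through that Th1 array, and Th17 replicate 3, alone on slide 3, adds nothing to it.

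Per array, 53.4% to 58.3% of probes passed the background test and 0 were saturated. Every array showed all 7 measured CD4 T cell markers above background. The B cell markers Cd79b, Pax5 and Ms4a1 were above background on no array, and neither was Cd8a nor the NK genes Ncr1 and Klrb1c. Cd8b1, the other CD8 chain, was measured on every array, and fell by 3.31 in Th1 and fell by 3.41 in Th17 cells against naive on the log2 scale. The summed linear signal of 6 myeloid markers, in units of the array's 75th percentile, was 17.0 to 17.2 in naive, 25.8 to 31.8 in Th1 and 20.1 to 30.8 in Th17 cells. Genes of this list went opposite ways: Itgam rose by 1.07 in Th1 and by 0.80 in Th17 cells, Csf1r fell by 0.72 and fell by 0.77, and Cd14 rose by 3.06 in Th17 cells and was not called in Th1 cells (0.58). The sum over 4 NK markers was 0.794 to 1.62, 1.17 to 6.85 and 0.227 to 1.19. In this list Eomes fell by 5.70 in Th17 cells against naive and was not called in Th1 cells (-1.195). It differed by -4.50 between Th17 and Th1 cells, and Gzma was not called in any comparison. The sum over 3 erythroid and platelet markers was 0.0449 to 0.111, 0.0674 to 1.31 and 0.898 to 2.8, so that every Th17 array lay above the naive arrays. The part of such cells in the changes of the members was not tested.

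**Figure D3:**
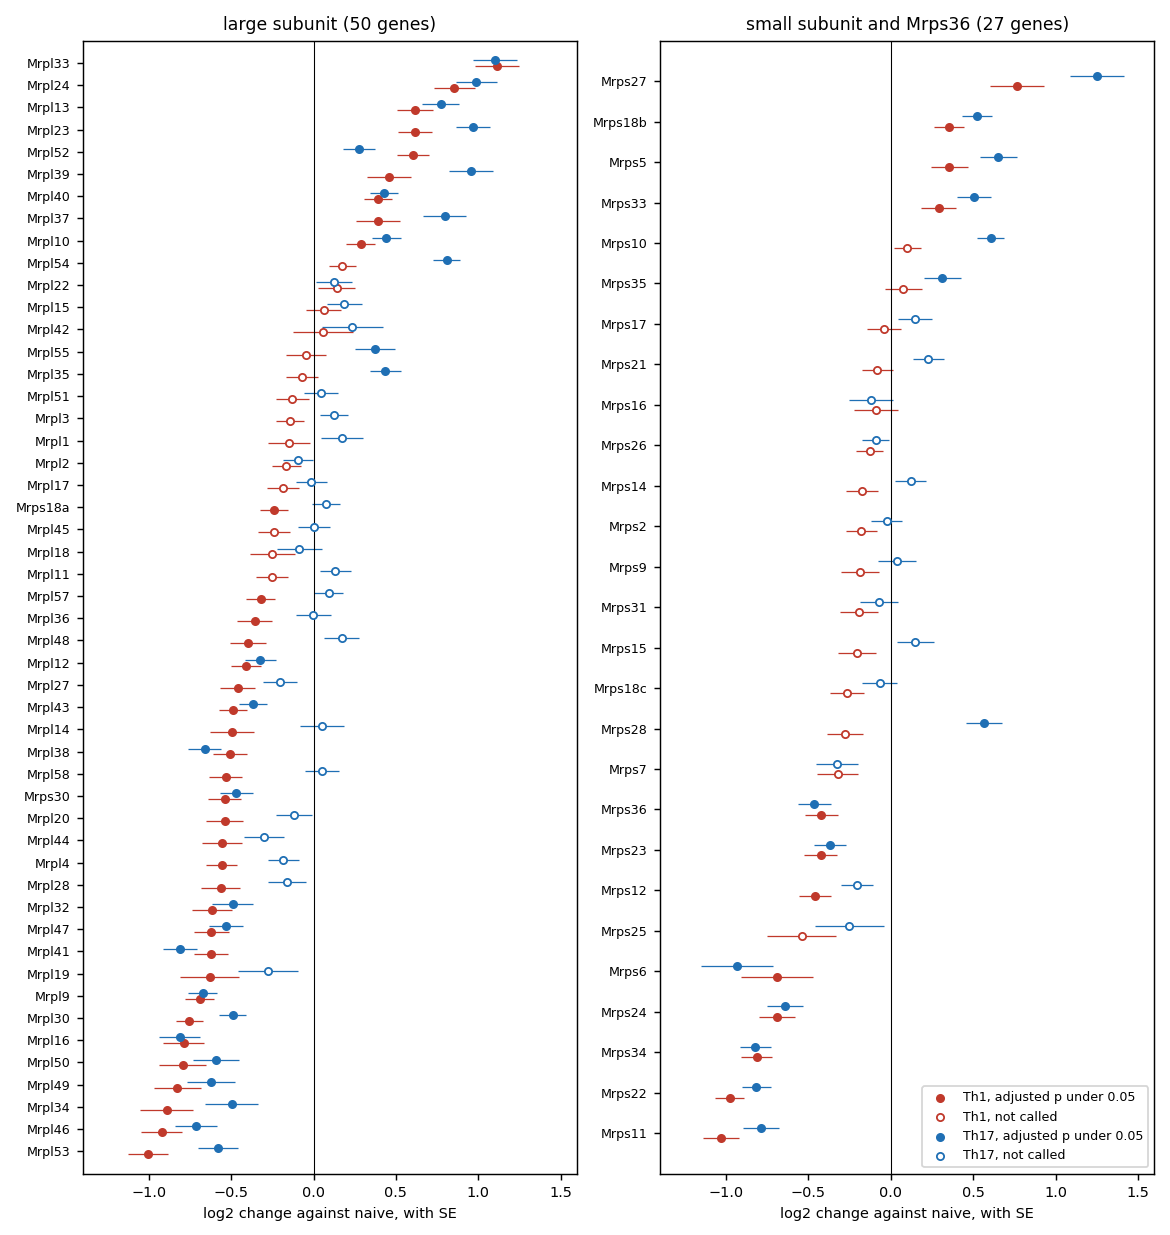
Log2 change against naive cells (horizontal axis, with its standard error) of each of the 77 members, for Th1 (red) and Th17 (blue), filled where the adjusted p is under 0.05. Genes are ordered by their change in Th1. Mrpl33 and Mrps27 head the 2 panels, Mrpl53 and Mrps11 close them, and blue points lie to the right of red ones for 66 of 77 members.

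The 13 members that rose in Th1 cells were Mrpl10, Mrpl13, Mrpl23, Mrpl24, Mrpl33, Mrpl37, Mrpl39, Mrpl40, Mrpl52, Mrps5, Mrps18b, Mrps27 and Mrps33. The 19 that rose in Th17 cells were these with Mrpl35, Mrpl54, Mrpl55, Mrps10, Mrps28 and Mrps35, and as both comparisons use the same naive arrays, their common calls are not independent. Mrpl33, a small protein of the large subunit with a bacterial counterpart, rose most in Th1 cells. Its level was 4.80, 4.74 and 4.82 in naive, 6.18, 5.80 and 5.72 in Th1 and 5.99, 5.78 and 5.90 in Th17 arrays. Every Th1 and Th17 array lay above the naive ones and the 2 effector groups overlapped. The change was 1.11 ± 0.13 (SE) in Th1 cells, 2.16-fold, with a limma adjusted p of 0.000224, and 1.10 ± 0.13 in Th17 cells (adjusted p 0.000216).

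Mrpl24 and Mrpl23 code for proteins near the exit of the tunnel through which the new chain leaves the large subunit. Mrpl24 lay at 3.44, 3.38 and 3.56 in naive, 4.25, 4.45 and 4.24 in Th1 and 4.22, 4.59 and 4.52 in Th17 cells, which is a rise of 0.85 ± 0.125 (SE) and of 0.99 ± 0.125. Mrpl23 was at 3.30 on each naive array, at 3.92, 4.02 and 3.79 in Th1 and at 4.17, 4.40 and 4.23 in Th17 cells, so that the 3 groups did not overlap. Its rise was 0.62 ± 0.10 (SE; limma adjusted p 0.00121) in Th1 and 0.97 ± 0.10 (adjusted p 0.000100) in Th17 cells. Among the 7 genes listed for the tunnel exit 3 rose and 2 fell in Th1 cells (42.9% and 28.6%), beside 23.5% and 30.4% of all genes. In Th17 cells 3 rose and 1 fell (42.9% and 14.3%), beside 24.4% and 29.7%.

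Mrps27, a pentatricopeptide repeat protein of the small subunit, rose by 0.77 ± 0.16 (SE) in Th1 and by 1.25 ± 0.16 in Th17 cells, the latter 2.38-fold. Its level was -1.43, -1.98 and -1.79 in naive, -1.07, -1.11 and -0.71 in Th1 and -0.45, -0.52 and -0.47 in Th17 arrays, in 3 steps without overlap. With slide in the fit it was not called, at 0.66 in Th1 and 1.09 in Th17 cells (limma adjusted p 0.0789 and 0.0545). The remaining rises among the 8 largest of each comparison were Mrpl13 (0.62 and 0.77), Mrpl52 (0.61 and 0.27), Mrpl39 (0.46 and 0.96), Mrpl40 (0.39 and 0.43) and Mrpl37 (0.39 and 0.80), given as log2 change in Th1 and then in Th17 cells. Several of these calls were weak. In Th1 cells Mrpl39 was not called without naive replicate 2 or without Th1 replicate 2, and Mrpl37 without any 1 of the naive and Th1 arrays except naive replicate 1. In Th17 cells Mrpl52 was not called without any 1 of the naive and Th17 arrays except Th17 replicate 1. With slide in the fit Mrpl39 and Mrpl37 were not called in either comparison, nor were Mrpl52 and Mrpl40 in Th17 cells.

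The 22 members that fell in Th17 cells were Mrpl9, Mrpl12, Mrpl16, Mrpl30, Mrpl32, Mrpl34, Mrpl38, Mrpl41, Mrpl43, Mrpl46, Mrpl47, Mrpl49, Mrpl50, Mrpl53, Mrps6, Mrps11, Mrps22, Mrps23, Mrps24, Mrps30, Mrps34 and Mrps36. The 35 that fell in Th1 cells were these with Mrpl4, Mrpl14, Mrpl19, Mrpl20, Mrpl27, Mrpl28, Mrpl36, Mrpl44, Mrpl48, Mrpl57, Mrpl58, Mrps12 and Mrps18a. Mrps11, a small subunit protein with a bacterial counterpart, fell furthest in Th1 cells. It lay at 0.78, 0.81 and 0.88 in naive, -0.18, -0.40 and -0.04 in Th1 and 0.10, 0.03 and -0.02 in Th17 arrays. All effector arrays were below all naive ones. The change was -1.03 ± 0.11 (SE), 2.04-fold lower, in Th1 (limma adjusted p 0.000120) and -0.79 ± 0.11 in Th17 cells (adjusted p 0.000476). With slide in the fit the change in Th17 cells was -0.72 and not called (limma adjusted p 0.052).

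Mrps22 and Mrps34 are small subunit proteins of mitochondria alone, and variants in both human genes are known in mitochondrial disease. Mrps22 lay at 2.85, 2.93 and 2.99 in naive, 1.97, 1.93 and 1.94 in Th1 and 2.03, 2.17 and 2.14 in Th17 cells, a change of -0.98 ± 0.09 (SE) and of -0.82 ± 0.09. Mrps34 lay at 4.11, 4.28 and 4.20, then at 3.48, 3.34 and 3.31, then at 3.36, 3.42 and 3.33, a change of -0.81 ± 0.09 (SE) and of -0.82 ± 0.09. For both genes the naive arrays stood apart from all others by more than the spread within any group. Mrpl53, of the large subunit, fell by 1.004 ± 0.12 (SE) in Th1 cells from 3.04, 3.33 and 3.46 to 2.28, 2.31 and 2.23, and fell by 0.58 ± 0.12 in Th17 cells to 2.59, 2.75 and 2.75, again with no overlap between the groups. With slide in the fit the change of Mrpl53 in Th17 cells was -0.60 and not called (limma adjusted p 0.114).

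The other falls among the 8 largest were, in Th1 and then in Th17 cells, those of Mrpl46 (-0.92 and -0.72), a protein of the central protuberance, Mrpl34 (-0.89 and -0.50), Mrpl49 (-0.83 and -0.62), Mrpl50 (-0.79 and -0.59), Mrpl16 (-0.79 and -0.81), Mrpl41 (-0.62 and -0.81), Mrpl9 (-0.69 and -0.67) and Mrps6 (-0.69 and -0.93). With slide in the fit Mrpl46, Mrpl16, Mrpl34 and Mrpl50 were not called in Th17 cells, at -0.37, -0.60, -0.84 and -0.53. Mrps6 had a wide spread (SE 0.22), from 4.66 to 5.28 in Th1 and from 4.46 to 5.15 in Th17 arrays, below 5.63, 5.78 and 5.84 in naive ones. Of the 13 members called lower in Th1 and not in Th17 cells, 7 passed the test of the difference between these cells: Mrpl4, Mrpl14, Mrpl20, Mrpl48, Mrpl57, Mrpl58 and Mrps18a.

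By subunit, 9 of 50 large subunit genes rose and 27 fell in Th1 against naive cells (18% and 54%), with a median of -0.34. Of 26 small subunit genes 4 rose and 7 fell (15.4% and 26.9%), with a median of -0.19. Of all genes 23.5% rose and 30.4% fell, so the falls in the small subunit were no larger a share than that. In Th17 cells 12 rose and 15 fell in the large subunit, which is 24% and 30%, close to the 24.4% and 29.7% of all genes, and 7 rose and 6 fell in the small subunit (26.9% and 23.1%). Of the 21 large subunit genes listed as mitochondria only, 13 fell in Th1 cells (61.9%). Of the 29 listed with a bacterial counterpart 14 fell (48.3%), beside 30.4% of all genes. The first list includes Mrps18a, although it is a paralogue of bacterial S18. The difference between these classes was not tested. The 3 paralogues of bacterial S18 went different ways in Th1 cells: Mrps18b rose by 0.35 ± 0.09 (SE), Mrps18a fell by 0.24 ± 0.08, and Mrps18c changed by -0.27 ± 0.11, which was not called (limma adjusted p 0.0611). The fall of Mrps18a lost its call under 14 of 21 alternatives, among them leaving out any 1 of the naive and Th1 arrays except Th1 replicate 3, and Mrps18b was not called with slide in the fit. Mrps36 fell by 0.42 ± 0.10 in Th1 and fell by 0.46 ± 0.10 in Th17 cells at its brightest probe, and its second probe was not called (-0.01 and 0.10). With slide in the fit Mrps36 was not called in Th17 cells (limma adjusted p 0.0782).

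**Figure D4:**
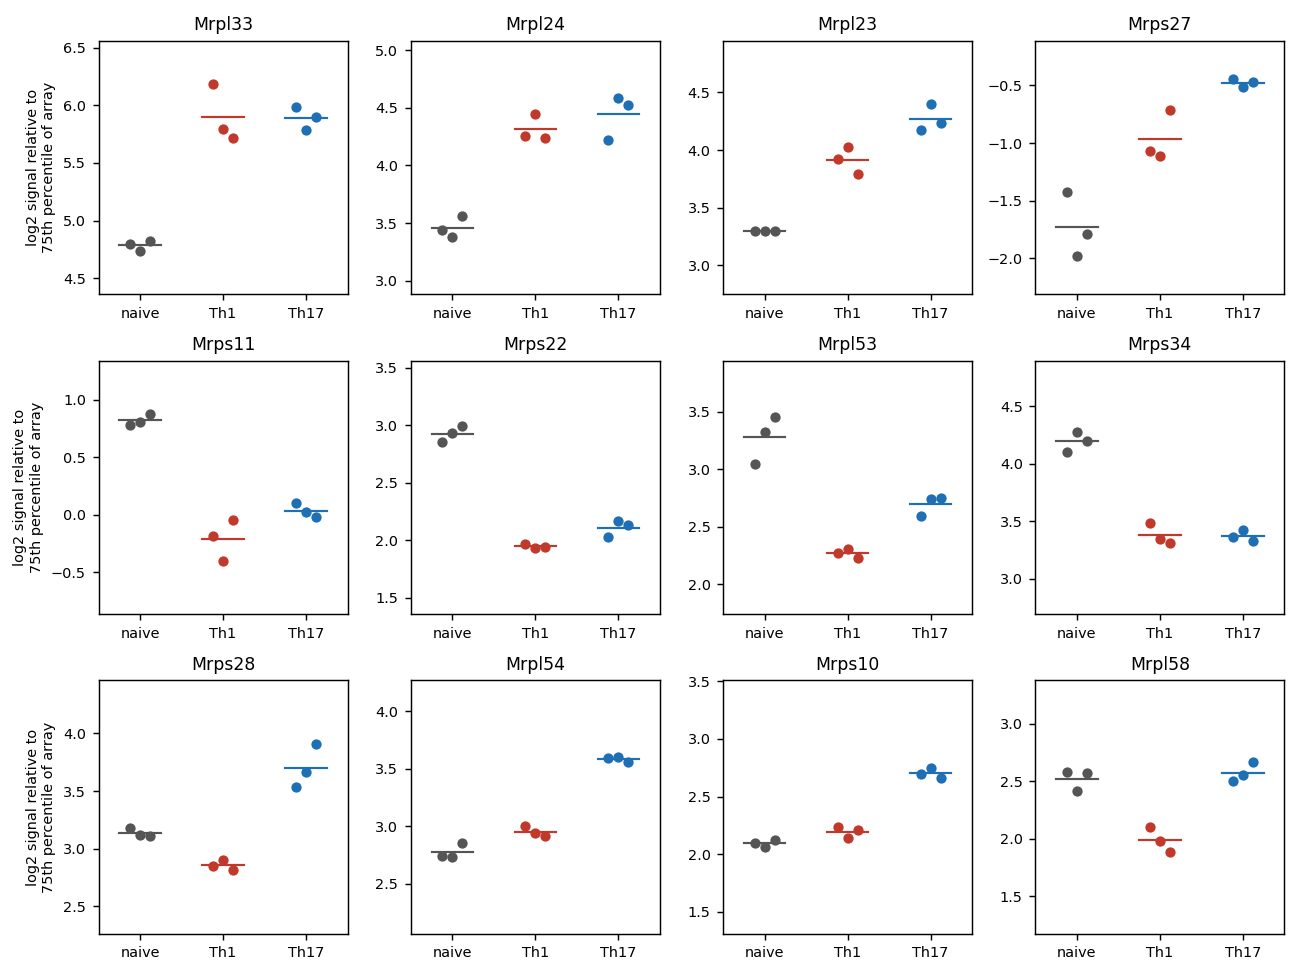
Log2 level relative to the array's 75th percentile (vertical axis, panels of equal height) of 12 members on the 3 naive, 3 Th1 and 3 Th17 arrays. Points are arrays and lines group means. The top row rises from naive cells, the middle row falls, and in the bottom row Th17 arrays lie above Th1 arrays, for example Mrpl54 at 3.56 to 3.60 against 2.92 to 3.00.

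Between Th17 and Th1 cells all 15 called members were higher in Th17 cells, 13 of 50 in the large subunit (26%) and 2 of 26 in the small subunit (7.69%), where 8.28% of all genes were higher. Mrps28, a small subunit protein, differed most. Its level was 3.54, 3.67 and 3.91 in Th17, 2.85, 2.90 and 2.82 in Th1 and 3.18, 3.12 and 3.11 in naive cells, so Th17 arrays lay above and Th1 arrays below the naive ones. The difference was 0.85 ± 0.11 (SE), 1.80-fold, with a limma adjusted p of 0.00147. Mrpl54, of the large subunit, lay at 3.59, 3.60 and 3.56 in Th17 against 3.00, 2.94 and 2.92 in Th1 cells, 0.63 ± 0.08 higher (SE; limma adjusted p 0.00164). These 2 genes were also called within slide 2, at 0.74 and 0.67.

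Mrpl58 carries a peptidyl-tRNA hydrolase domain and is known to release stalled chains. It lay at 2.50, 2.56 and 2.67 in Th17 and at 2.10, 1.98 and 1.88 in Th1 cells, a difference of 0.59 ± 0.10 (SE), with naive arrays at 2.58, 2.41 and 2.57 among the Th17 ones. Mrps10 lay at 2.69, 2.75 and 2.66 in Th17 cells, above 2.23, 2.14 and 2.21 in Th1 and 2.10, 2.07 and 2.12 in naive cells, 0.51 ± 0.08 above Th1 (SE). Mrpl48 (0.57) and Mrpl35 (0.51) were likewise called. These 6 genes, Mrps28, Mrpl54, Mrpl58, Mrpl48, Mrps10 and Mrpl35, kept their call whichever 1 array of the 2 groups was left out.

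The other 9 did not. Mrpl57 (0.41) lost its call without Th1 replicate 2, Mrpl14 (0.55) without any 1 of the Th1 arrays or Th17 replicate 3, and Mrpl39 (0.50) without any 1 array except Th17 replicate 1. Mrpl4 (0.37), Mrpl11 (0.38), Mrpl20 (0.42), Mrpl23 (0.35, limma adjusted p 0.04997), Mrpl53 (0.42) and Mrps18a (0.32) lost it whichever array of the 2 groups was left out. The count of members higher in Th17 cells was then 6 to 9. It was 7, 6 and 9 without Th1 replicates 1, 2 and 3, and 9, 8 and 8 without Th17 replicates 1, 2 and 3. The share of all genes called higher fell too, from 8.28% to between 5.33% and 7.11%. The members' median difference stayed at 0.20 to 0.24. Quantile normalization and the 75th percentile over probes above background on all arrays each gave 8 higher and 1 lower, the lower one being Mrpl52 (main value -0.33, limma adjusted p 0.0522). Of all genes, 8.24% were higher and 7.74% lower with quantile normalization, and 6.77% and 9.51% with that percentile.

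In none of the 3 comparisons were 22 members called: Mrpl1, Mrpl2, Mrpl3, Mrpl15, Mrpl17, Mrpl18, Mrpl22, Mrpl42, Mrpl45, Mrpl51, Mrps2, Mrps7, Mrps9, Mrps14, Mrps15, Mrps16, Mrps17, Mrps18c, Mrps21, Mrps25, Mrps26 and Mrps31. Mrpl1 lay at -0.44, -0.59 and -0.47 in naive, -0.56, -0.77 and -0.61 in Th1 and -0.53, -0.34 and -0.10 in Th17 cells, where naive cells overlapped with both other groups. For Mrps25 the change of the brightest probe was -0.54 ± 0.21 (SE) in Th1 cells, not called, while its second probe rose by 1.07 ± 0.13. In all, 21 members had 2 kept probes, and these had the same sign in 18 genes in each comparison with naive cells and in 17 genes between Th17 and Th1 cells. Mrpl41 was the 1 member whose probes passed in opposite directions, at -0.62 and 0.34 (limma adjusted p 0.00123 and 0.0480) in Th1 against naive cells. Its direction, like that of Mrps25, is therefore uncertain.

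Promoters were compared because these nuclear genes are thought to share regulators. RefSeq promoters on GRCm38.p6, from 250 bases before the start to 50 after it, were at hand for 69 of 78 members and 27025 genes, of which 10476 were tested here. They were searched on both strands for letters bound by factors known from nuclear genes for mitochondria. The NRF1 letters GCGCATGC were in 11.6% of members, 5.64% of genes tested and 3.05% of the table. The ETS letters CCGGAAG, read by GABPA among others, were in 37.7%, 18.7% and 9.93%, and the YY1 letters AAGATGGC in 17.4%, 4.90% and 3.19%. The E-box CACGTG, to which MYC can bind, was in 7.25%, 11.4% and 8.09%, and the Sp1 letters GGGCGG in 49.3%, 63.8% and 38.2%. ETS and Sp1 letters overlapped in 2 member promoters and no other pair did. The median share of G and C was 58.0% in members and 60.0% in genes tested. The ETS letters were in 5 of 12 members higher and 11 of 31 lower in Th1 cells, the NRF1 letters in 4 of 12 and 2 of 31, and the YY1 letters in 2 of 12 and 7 of 31, as a description of small counts. Of 25 members not called there, 9 held the ETS, 2 the NRF1 and 3 the YY1 letters. In Th17 against naive cells the ETS letters were in 5 of 15 higher and 5 of 20 lower members. The NRF1 letters were there in 4 of 15 and 2 of 20, and the YY1 letters in 3 of 15 and 4 of 20. These shares say nothing of binding.

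The following promoters, cut at 30 bases after the start, belong to the member that rose most in Th1 cells, the 1 that fell most there, 1 higher in all 3 comparisons, and 1 lower in Th1 and higher in Th17 than in Th1 cells. Capitals mark the motif letters listed above.

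Mrpl33, chr5:31613701-31613980, plus strand: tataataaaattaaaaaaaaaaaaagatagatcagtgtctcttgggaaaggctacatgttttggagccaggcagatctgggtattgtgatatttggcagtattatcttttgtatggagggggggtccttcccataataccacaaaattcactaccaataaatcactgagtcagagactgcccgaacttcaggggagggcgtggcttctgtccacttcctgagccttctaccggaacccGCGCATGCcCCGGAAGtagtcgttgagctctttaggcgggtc

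Mrps11, chr7:78782881-78783160, plus strand: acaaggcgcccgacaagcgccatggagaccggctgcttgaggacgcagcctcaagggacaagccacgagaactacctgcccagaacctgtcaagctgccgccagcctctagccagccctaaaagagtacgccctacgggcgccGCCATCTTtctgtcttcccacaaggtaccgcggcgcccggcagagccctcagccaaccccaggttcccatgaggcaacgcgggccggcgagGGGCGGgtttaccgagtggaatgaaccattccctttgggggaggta

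Mrpl39, chr16:84735215-84735494, minus strand: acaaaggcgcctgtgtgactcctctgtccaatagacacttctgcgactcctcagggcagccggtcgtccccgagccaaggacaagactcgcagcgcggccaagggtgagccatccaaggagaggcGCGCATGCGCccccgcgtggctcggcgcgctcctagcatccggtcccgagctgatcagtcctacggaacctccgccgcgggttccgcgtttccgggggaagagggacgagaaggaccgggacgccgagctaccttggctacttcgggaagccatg

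Mrpl58, chr11:115403502-115403781, plus strand: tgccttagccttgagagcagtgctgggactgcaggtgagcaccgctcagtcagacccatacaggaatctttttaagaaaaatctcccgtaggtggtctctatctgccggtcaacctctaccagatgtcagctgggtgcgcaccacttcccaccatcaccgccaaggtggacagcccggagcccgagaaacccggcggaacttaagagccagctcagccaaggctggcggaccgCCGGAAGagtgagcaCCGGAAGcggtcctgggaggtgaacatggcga

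NRF1 and ETS letters stand side by side near the start of Mrpl33, Mrps11 holds YY1 and Sp1 letters, Mrpl39 a pair of overlapping NRF1 matches on opposite strands, and Mrpl58 a pair of ETS matches close to its start.

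Of the regulators, Nrf1 was not called in any comparison (-0.05 in Th1 and 0.14 in Th17 against naive). Gabpa rose by 0.35 in Th17 cells and was not called in Th1 cells (0.18). Yy1 fell by 0.685 in Th1 and fell by 0.53 in Th17 cells, and Myc fell by 0.855 in Th1 cells, with -0.75 in Th17 cells not called (limma adjusted p 0.0557). On slide 1 Myc lay at 5.66, 5.855 and 5.66 in naive cells and at 5.44 in Th1 replicate 1. Th1 replicates 2 and 3, on slide 2, lay at 4.46 and 4.71. Results with slide in the fit are not given for these regulators or for other genes outside the members. Ppargc1b, a coactivator of mitochondrial genes, fell by 1.22 in Th1 and fell by 1.98 in Th17 cells and differed by -0.76 between Th17 and Th1 cells, and Esrra, a nuclear receptor that works with it, changed by -0.85 and -0.985, both falls. In this list of 8 tested genes 0 rose and 4 fell in Th1 cells, beside 23.5% and 30.4% of all genes. In Th17 cells 1 rose and 3 fell, beside 24.4% and 29.7%, and between Th17 and Th1 cells 0 rose and 1 fell, beside 8.28% and 7.53%.

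Mitoribosomal proteins with other names were listed separately. Of 5 tested, 0 rose and 3 fell against naive cells in each effector group, and 1 was higher in Th17 than in Th1 cells. Of all genes 30.4% fell in Th1 and 29.7% in Th17 cells, and 8.28% were higher in Th17 than in Th1 cells. Gadd45gip1, of the large subunit, lay at 3.39, 3.46 and 3.43 in naive, 2.63, 2.64 and 2.57 in Th1 and 2.89, 3.00 and 2.96 in Th17 cells, 3 levels without overlap. Dap3, of the small subunit, fell by 0.46 in Th1 and fell by 0.56 in Th17 cells.

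Some assembly factors changed by more than any member. Tfb1m, the methyltransferase of the small ribosomal RNA, rose by 1.94 ± 0.13 (SE) in Th1 and by 2.13 ± 0.13 in Th17 cells, from -1.61, -1.86 and -1.56 in naive to 0.27, 0.23 and 0.28 and to 0.25, 0.44 and 0.65. Rbfa, which binds the small subunit as it matures, fell by 2.03 ± 0.185 (SE) in Th1 and fell by 2.25 ± 0.185 in Th17 cells, from 1.36, 1.37 and 1.36 in naive to between -0.95 and -0.51 in Th1 and between -1.23 and -0.54 in Th17 cells. Thus 2 factors of the same subunit moved in opposite directions and naive arrays stood clear of all others for both. Of 20 assembly genes 4 rose and 9 fell in Th1 cells (20% and 45%), beside 23.5% and 30.4% of all genes. In Th17 cells 4 rose and 7 fell (20% and 35%), beside 24.4% and 29.7%. Between Th17 and Th1 cells 3 rose and 0 fell (15% and 0%), beside 8.28% and 7.53%. With the percentile over probes above background everywhere, the Th1 counts became 4 and 2, beside 28.6% and 23.2% of all genes. With quantile normalization they became 4 and 4, beside 23.2% and 27.6%.

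Among 12 translation factors 4 rose and 4 fell in Th1 cells, 6 rose and 3 fell in Th17 cells, and 3 rose and 0 fell between them. For this and the next lists, the shares of all genes higher and lower were 23.5% and 30.4% in Th1 cells. They were 24.4% and 29.7% in Th17 cells, and 8.28% and 7.53% between Th17 and Th1 cells. Tufm, the elongation factor that carries the aminoacyl-tRNA, changed by -0.79 and -0.80, and Gfm2, which takes part in recycling, rose by 1.07 and 1.13. Gfm1 (0.41), Tsfm (0.50) and Mtrf1 (0.53) were higher in Th17 than in Th1 cells. Of 16 mitochondrial aminoacyl-tRNA synthetases 8 rose and 5 fell in each effector group, and 2 were higher in Th17 than in Th1 cells. Fars2, which charges the tRNA for phenylalanine, lay at -2.68, -2.86 and -3.27 in naive, -1.69, -1.92 and -1.67 in Th1 and -0.55, -0.75 and -0.13 in Th17 cells, 1.29 ± 0.20 (SE) higher in Th17 than in Th1 cells. Of 12 genes for mitochondrial DNA and its transcription 1 rose and 5 fell in Th1 and 1 rose and 4 fell in Th17 cells, among them Polg2 (-0.998 and -1.26) and Tfam (-0.56 and -0.61). A list for inner membrane insertion and nascent chains held 7 genes (Oxa1l, Letm1, Cox18, Afg3l2, Spg7, Phb and Phb2). Of these 2 rose and 4 fell in Th1 cells (0 fell with quantile normalization or with that percentile), and 2 rose and 2 fell in Th17 cells. Between Th17 and Th1 cells limma called 0 (1 higher and 0 lower at an unadjusted p under 0.05).

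Compared with the ribosome of the cytosol, the mitoribosome had changes in both directions. Of all genes tested, 23.5% rose and 30.4% fell in Th1 cells, 24.4% and 29.7% in Th17 cells, and 8.28% and 7.53% between them. Of 82 cytosolic ribosomal protein genes 0 rose and 74 fell in Th1 cells, 0 rose and 51 fell in Th17 cells, and 0 were called between Th17 and Th1 cells (limma; 1 higher and 0 lower at an unadjusted p under 0.05), where their median was 0.11. Of 81 genes of the respiratory chain and ATP synthase, which include the partners of the mitoribosome's own products, 15 rose and 22 fell in Th1 cells, 32 rose and 7 fell in Th17 cells, and 17 rose and 0 fell between them, with medians of -0.10, 0.18 and 0.225. Quantile normalization left 16 and 24 falls of cytosolic ribosomal protein genes in Th1 and Th17 cells, beside 27.6% and 28.5% of all genes. It turned the median of the respiratory genes in Th1 cells to 0.087 (24 higher and 12 lower, beside 23.2% and 27.6% of all genes). The differences between these groups of genes were not tested.

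**Figure D5:**
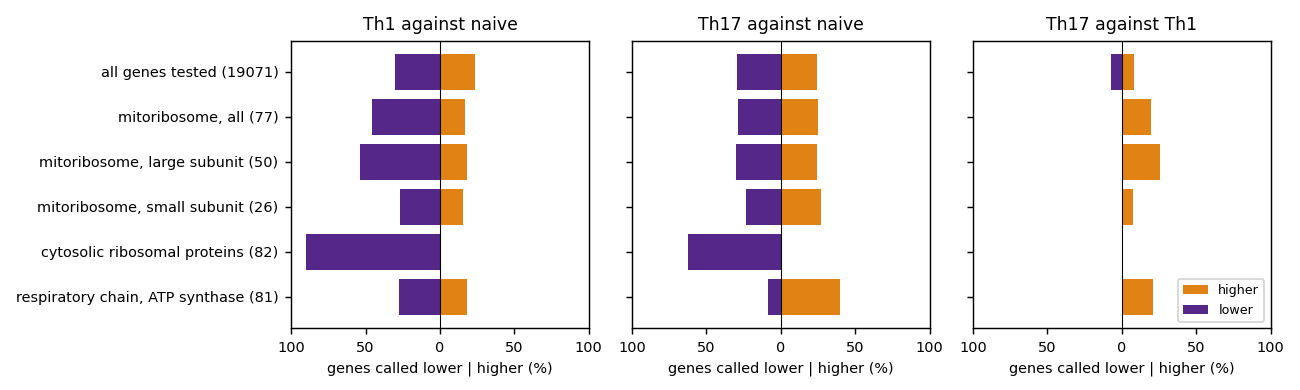
Share of genes called higher (orange, to the right) and lower (purple, to the left) at an adjusted p under 0.05, in percent, for all genes tested, the mitoribosome and its subunits, the cytosolic ribosome, and the respiratory chain with ATP synthase, with the number tested in brackets. Between Th17 and Th1 cells 19.5% of mitoribosomal genes were higher and 0 lower, and 0 cytosolic ribosomal protein genes were called. Of the respiratory chain and ATP synthase genes 21% were higher and 0 lower.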

How the data were processed

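RNA (0.5 µg per sample) was labelled with Cy3 and hybridised to Agilent arrays with a single colour, 3 per cell population. The deposited files hold, per the file headers, an intensity per spot, the processed signal of Feature Extraction 10.7.3.1, background-subtracted and not normalized between arrays, and the submitters' processing notes name version 10.5. The authors also deposited log2 values per probe with an unstated baseline, which served as an alternative only. Control spots and outlier spots were dropped, each array's 75th percentile was subtracted from the log2 signals, and repeated spots of 1 probe were averaged. Symbols came from RefSeq accessions for 27234 of 39429 probes. Probes well above background on at least 3 of 9 arrays were kept (23215), and the brightest probe stood for a gene (19071 genes). The number of arrays limits the precision. All groups entered 1 limma fit (version 3.58.1, lmFit and eBayes) in R 4.3.3, after a test on simulated data. The header names another build than the reference, so positions are given only for RefSeq promoters.

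Members and lists were chosen with earlier results of these data known. Named members were, per comparison, the 8 largest rises and 8 largest falls among called members whose groups did not overlap, all members called between Th17 and Th1 cells, the S18 paralogues, Mrps36, members whose probes passed in opposite directions, members not well above background, and the 3 with the highest and 3 with the lowest mean level, which are not compared since probes differ. Mrps25 and the promoters shown were chosen after their values were seen, as were the motifs. From each other list up to 3 genes per comparison with the smallest p qualified, and Myc, Nrf1, Gabpa, Yy1 and Tfam always. Alternatives covered background correction, scaling, the dim-probe filter, probe choice, slide, replicate block, the samples fitted and leaving out each array. The planned normexp correction used median signals, since the files used here carry no mean signal, and a version without local background was chosen after seeing the data.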

Additional observations from a re-analysis of the deposited data

Results flagged for a closer look

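The changes against naive cells of 15 members differed between Th17 and Th1 cells by the test of the difference itself, which is the limma contrast of Th17 against Th1 (adjusted p under 0.05 over all genes tested). Each difference below is the Th17 change minus the Th1 change on the log2 scale.

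Mrps28 differed by 0.848, with a change against naive of -0.28 in Th1 and 0.568 in Th17 cells, and Mrpl54 by 0.632 (0.176 and 0.808). Mrps10 differed by 0.509 (0.099 and 0.607) and Mrpl35 by 0.506 (-0.069 and 0.437). In these 4 genes the change was called in Th17 cells only. With slide in the fit Mrps28 and Mrpl35 lost that call against naive cells, and Mrpl54 and Mrps10 kept it. Mrpl58 differed by 0.587, Mrpl48 by 0.57, Mrpl14 by 0.548, Mrpl20 by 0.423, Mrpl57 by 0.414, Mrpl4 by 0.374 and Mrps18a by 0.316, all called lower in Th1 and not called in Th17 cells. Mrpl53, lower in both, differed by 0.423. Mrpl39 and Mrpl23, higher in both, differed by 0.497 and 0.353. Mrpl11 differed by 0.384 and was called in neither comparison with naive cells. Sizes of these 15 differences, their stability when an array is left out, and the slides on which the arrays lay are given in the results. No group had enough arrays to test a single array as an outlier.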

How the results depend on the processing

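In 2143 recalculations of the changes of called members 1752 kept direction and call, 384 kept direction alone and 7 reversed. The 7 reversals were in Th1 against naive under the planned normexp correction with local background: Mrpl10 (-0.008), Mrpl13 (-0.011), Mrpl23 (-0.021), Mrpl52 (-0.023), Mrpl40 (-0.14), Mrps18b (-0.261) and Mrps33 (-0.315). That setting called 0 members in any comparison (limma; at an unadjusted p under 0.05, 1 higher and 26 lower, 3 and 3, and 6 and 0 for Th1 and Th17 against naive and for Th17 against Th1), with medians of -0.74 for Th1 against naive and 0.646 for Th17 against Th1. On Th1 replicate 2, 5 spots had a local background over 1000, up to 168530, against at most 361 on the other arrays. Without local background, normexp gave 12 higher and 37 lower, 19 and 24, and 16 and 1. The shares of all genes were then 18.9% and 30.6%, 21.8% and 27.5%, and 8.91% and 6.45%. Under the planned normexp these shares were 3.77% and 2.85%, 3.67% and 2.78%, and 0.367% and 0.572%. Apart from the planned normexp, 18 of 48, 17 of 41 and 2 of 15 calls of members (Mrpl54 and Mrps28) held under every alternative run.

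In the same order of comparisons the members' medians were -0.142, 0.056 and 0.157 with quantile normalization, where those of all genes were -0.072, -0.065 and -0.004. They were -0.102, 0.071 and 0.144 with the percentile over probes above background on all arrays. With the median of kept probes they were -0.306 and -0.054 for the first 2. Between Th17 and Th1 cells quantile normalization and that percentile each gave 8 higher and 1 lower, beside 8.24% and 6.77% of all genes higher. No filter on dim probes gave 6 higher, beside 3.16% of all genes. Also 1 lower was given by the filter on all 9 arrays, by eBayes with trend and robust, and by the authors' values. Slide as a fixed block gave 6 higher in Th1, 7 higher and 11 lower in Th17, and 7 higher between them. Within slide 1 there were 5 higher and 16 lower, and within slide 2 there were 2 higher. Leaving out 1 array gave 8 to 12 higher in Th1 against naive, beside 20% to 22.1% of all genes. In Th17 against Th1 it gave 6 to 9 higher, beside 5.33% to 7.11% of all genes, and a members' median of 0.198 to 0.244.

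The labels do not say whether replicate numbers pair the arrays, and the main fit used no pairing. Residuals of arrays of different groups had r of -0.007 to 0.175 with the same number and -0.197 to 0.065 with different ones. These ranges overlapped, with that of the same number lying higher, so some sharing by number is possible. A replicate block gave 12 higher and 35 lower, 17 and 23, and 11 and 0. The shares of all genes were then 23.4% and 29.9%, 24.4% and 29.5%, and 8.1% and 7.83%.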
